A study of Mus musculus with 72 samples.

Results

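Tumours of mice treated with bintrafusp alfa alone were compared directly with tumours of mice treated with radiation alone, to list the genes that set the 2 single treatments apart. The mice were chosen by their treatment label: 9 labelled M7824, the code name of bintrafusp alfa (called BA here), and 9 labelled radiation (called RT). They gave 36 of the 72 libraries of the study and 18 of its 36 mice, since each tumour was measured with both of 2 targeted sequencing panels. All mice were female BALB/c, aged 6 to 12 weeks, and carried tumours of 4T1, a mouse mammary carcinoma line. The cells were injected into the thigh muscle on day -6, mice were randomised and treated on day 0, and tumours were taken on day 6. The tissue label reads orthotopic tumor, which differs from the thigh given in the design text. BA mice received 492 µg of bintrafusp alfa. RT mice received radiation together with isotype control antibody; the labels do not say how large the radiation dose was, so the comparison is between these regimens and not between matched doses. The other groups, used here only as reference levels, were 9 mice given 400 µg of isotype control antibody and 9 given BA and radiation (BA+RT).

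Bintrafusp alfa is a fusion protein that joins an antibody against PD-L1, a ligand that restrains T cells through the receptor PD-1, to the extracellular part of the TGF-β type II receptor, which captures TGF-β in the tumour. TGF-β is a cytokine that drives matrix production by fibroblasts and restrains cytotoxic lymphocytes. Ionising radiation breaks DNA, which activates p53 and repair pathways; cytosolic DNA in irradiated cells can also be sensed as if it were viral, which induces type I interferon and, through it, antiviral genes. Radiation also kills lymphocytes, which are among the most radiosensitive cells.

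The panels measured 1224 different genes, of which 1038 passed the filter on low counts. Total gene counts were lower in the BA libraries (959532 to 1763286 on the first panel and 314621 to 641203 on the second) than in the RT libraries (1526991 to 2616197 and 546144 to 775133). Each gene was read in a short amplicon, and 1277 of 1278 amplicons lay inside the named gene on GRCm38, 813 of them in coding exons. The amplicon of Prf1, for example, lies at chr10:61303348-61303439 and that of Oasl1 at chr5:114928141-114928230, both in coding exons. Levels are given as CPM, the count scaled to a fixed normalised total for the panel, as the lowest, highest and median of the 9 tumours of a group, and differences as log2 BA minus RT with the standard error of the fit, so a negative difference means a higher level with radiation. On the first principal component of the 18 tumours, which held 55.3% of the variance, all BA tumours lay apart from all RT tumours. Each panel scales its own total, so levels are relative to the other genes of the panel, and in bulk tumour RNA fewer cells of a type and less RNA per cell cannot be told apart.

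The 2 treatments left widely different transcript profiles. At an adjusted p under 0.05, 558 of the 1038 genes differed (53.8%), 265 higher in BA tumours (25.5%) and 293 higher in RT tumours (28.2%), and these shares are the background for every count of genes below. The median difference over all genes was -0.0044. Against isotype control, 12.5% of the genes passed as higher and 14.5% as lower with BA, and 20.5% and 21.1% with RT. In 71 genes (6.84%) every BA tumour lay above every RT tumour, and in 101 genes (9.73%) every BA tumour lay below every RT tumour. When the 9 reference genes of each panel set the scale, the median of all genes moved to -0.246 and the split to 118 higher in BA and 536 higher in RT. Differences are therefore best read relative to that shift, and list counts and medians on that scale relative to this split and median. A change of sign under the shift is stated beside the gene groups described.

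**Figure D1:**
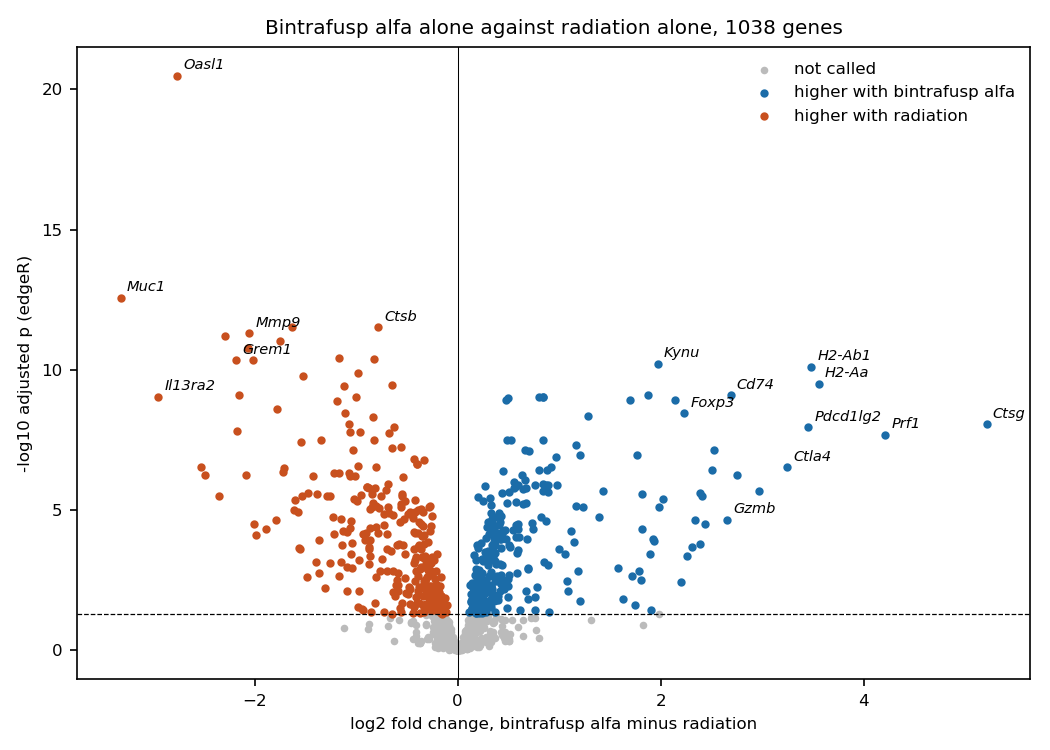
Log2 difference BA minus RT (horizontal) against -log10 of the edgeR adjusted p (vertical) for 1038 genes; each point is a gene, and the dashed line marks an adjusted p of 0.05. The 265 genes higher in BA lie on the right, led by Ctsg and Prf1, and the 293 higher in RT on the left, where Muc1 has the largest difference and Oasl1 the smallest p.

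BA tumours held more transcript of the killing machinery of lymphocytes. Of the 18 tested cytotoxic and natural killer cell genes, 9 were higher in BA and 3 in RT, with a median of 0.55, and in 8 of the 18 every BA tumour exceeded every RT tumour against 6.84% of all genes. Prf1, which encodes the pore-forming protein perforin, ranged from 27.9 to 169 CPM (median 93.5) in the BA tumours and from 2.01 to 12.2 CPM (median 3.10) in RT tumours. Prf1 differed by 4.21 ± 0.51 (18.5-fold, edgeR adjusted p = 2.05e-08). The lowest BA tumour was above the highest RT tumour, and the control median of 3.73 CPM was close to that of RT. The granzymes Gzma and Gzmb encode serine proteases that enter target cells through perforin pores. Gzma ranged from 102 to 444 CPM (median 186) in the BA tumours and from 16.4 to 52 CPM (median 24.3) in RT tumours. Gzma differed by 2.97 ± 0.46 (7.85-fold, edgeR adjusted p = 2.07e-06). Gzmb ranged from 98.8 to 399.9 CPM (median 229) in the BA tumours and from 18.6 to 72.3 CPM (median 28.8) in RT tumours. Gzmb differed by 2.66 ± 0.48 (6.31-fold, edgeR adjusted p = 2.17e-05). For both granzymes, too, the groups did not overlap. Nkg7, which encodes a membrane protein of cytotoxic granules, ranged from 72.2 to 246 CPM (median 117) in the BA tumours and from 7.24 to 30.4 CPM (median 16.1) in RT tumours, again without overlap. Nkg7 differed by 2.75 ± 0.40 (6.73-fold, edgeR adjusted p = 5.77e-07).

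Against the 9 isotype control tumours, which both treatments share as their reference, Prf1, Gzmb and Gzma rose with BA, and radiation did not pass the test. The log2 differences of Prf1 were 3.98 ± 0.51 (edgeR adjusted p = 7.03e-07) for BA minus control and -0.23 ± 0.55 (edgeR adjusted p = 0.767) for RT minus control. Those of Gzmb were 2.92 ± 0.49 (edgeR adjusted p = 3.58e-05) for BA minus control and 0.27 ± 0.48 (edgeR adjusted p = 0.690) for RT minus control. For Gzma they were 2.21 ± 0.45 (edgeR adjusted p = 3.45e-04) for BA minus control and -0.77 ± 0.45 (edgeR adjusted p = 0.174) for RT minus control. The receptor genes Klrd1 and Ncr1 of natural killer cells were also higher in BA. Klrd1, the CD94 subunit of NKG2 receptors, ranged from 18.1 to 48.1 CPM (median 25.9) in the BA tumours and from 2.82 to 7.69 CPM (median 4.15) in RT tumours. Klrd1 differed by 2.53 ± 0.33 (5.76-fold, edgeR adjusted p = 7.04e-08). Ncr1, the activating receptor NKp46, ranged from 10.6 to 41.4 CPM (median 19.9) in the BA tumours and from 0.669 to 8.14 CPM (median 2.51) in RT tumours. Ncr1 differed by 2.41 ± 0.39 (5.31-fold, edgeR adjusted p = 3.05e-06). Neither receptor gene overlapped between the groups. Of the 3 genes that ran the other way, Gzmm, a further granzyme, ranged from 2.53 to 12.5 CPM (median 7.33) in the BA tumours and from 12.2 to 23.1 CPM (median 20.5) in RT tumours. Gzmm differed by -1.39 ± 0.22 (2.61-fold, edgeR adjusted p = 2.69e-06). Ccl5, a chemokine that cytotoxic cells and many other cells make, is described with the chemokines below. The third was Eomes, a transcription factor of natural killer and T cells, named after its values were seen, with medians of 54 against 68.5 CPM (log2 difference -0.28 ± 0.11, 1.21-fold, edgeR adjusted p = 0.0303). The natural killer cell markers Klrd1, Ncr1 and Eomes, 2 higher in BA and 1 in RT, summed to 90.4 to 163 CPM in BA and 66.7 to 100 CPM in RT tumours, and Eomes had the highest median of the 3 in both groups.

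**Figure D2:**
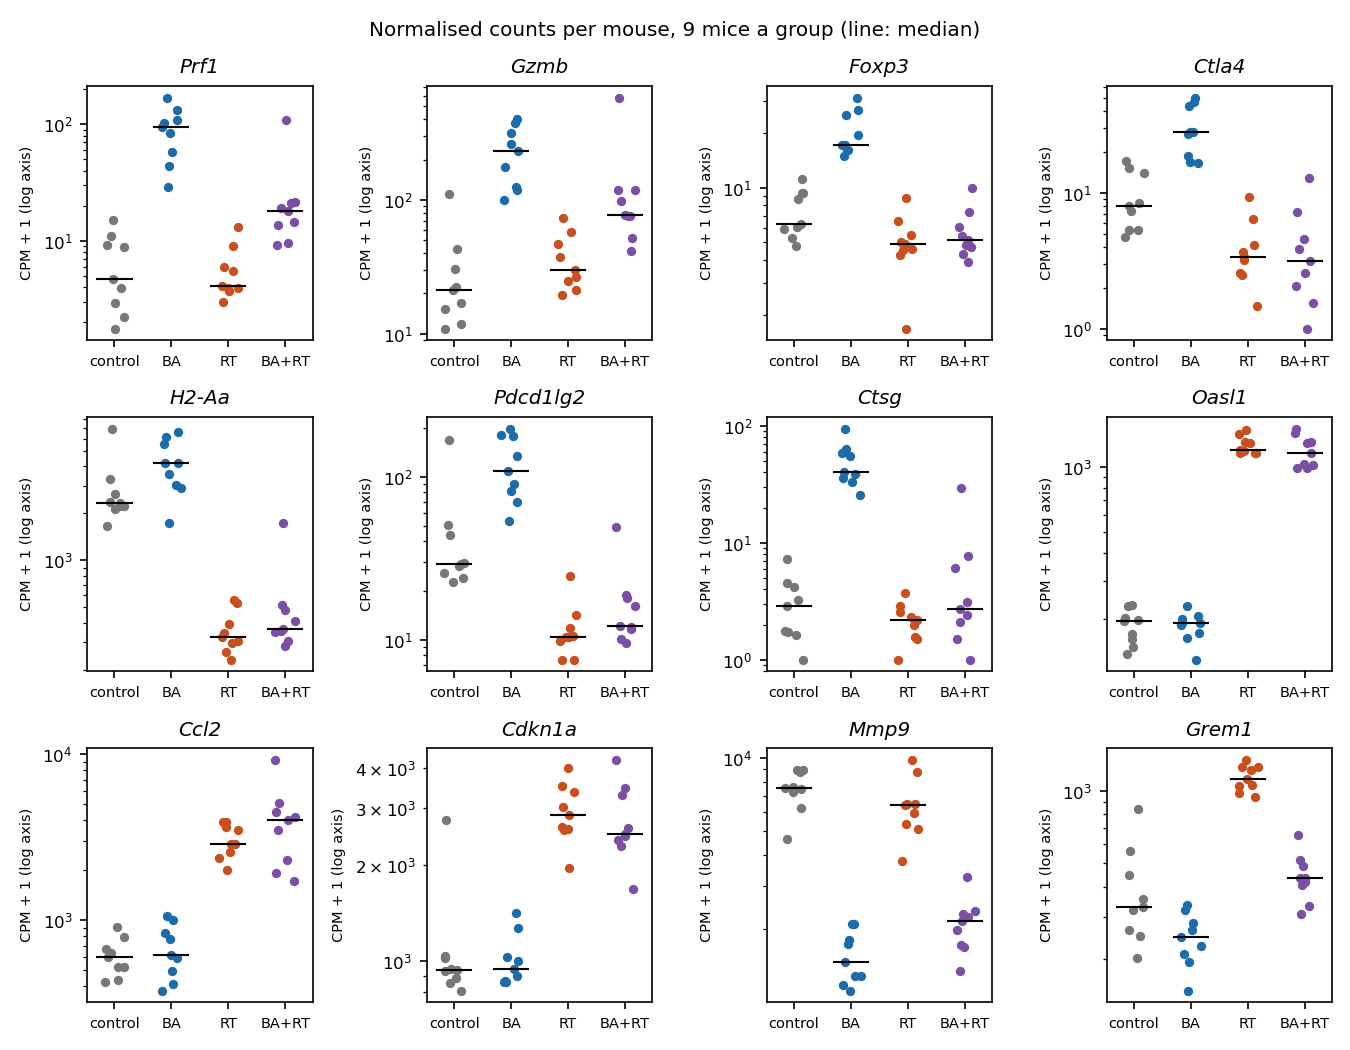
Normalised counts (CPM + 1, log axis) of 12 genes in each tumour of the 4 groups; points are mice, 9 a group, and lines are medians. Prf1, Gzmb, Foxp3, Ctla4, H2-Aa, Pdcd1lg2 and Ctsg lie higher in every BA tumour than in any RT tumour, and Oasl1, Ccl2, Cdkn1a, Mmp9 and Grem1 lower.

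T cell transcripts were higher in BA tumours across most of the list. Of 18 tested genes of the T cell receptor complex and T cell surface, 15 were higher in BA and 1 in RT, with a median of 1.80. Cd3g and Cd3d encode signalling chains of the receptor. Cd3g ranged from 18.3 to 107 CPM (median 37.3) in the BA tumours and from 2.77 to 36.9 CPM (median 6.02) in RT tumours. Cd3g differed by 2.44 ± 0.46 (5.43-fold, edgeR adjusted p = 3.06e-05). Cd3d ranged from 9.03 to 39.5 CPM (median 15.5) in the BA tumours and from 0.502 to 14.3 CPM (median 1.66) in RT tumours. Cd3d differed by 2.39 ± 0.51 (5.24-fold, edgeR adjusted p = 1.57e-04). Both overlapped between the groups through 1 irradiated tumour, mouse 24, which was the highest of the RT group in each. Zap70, the kinase that relays the receptor signal, ranged from 26.4 to 78.5 CPM (median 39.3) in the BA tumours and from 8.14 to 25.6 CPM (median 11.3) in RT tumours, without overlap. Zap70 differed by 1.82 ± 0.29 (3.53-fold, edgeR adjusted p = 2.58e-06). The coreceptor genes were low: Cd4 had medians of 9.48 against 3.34 CPM in BA and RT (log2 difference 1.90 ± 0.43, 3.72-fold, edgeR adjusted p = 3.55e-04). Cd8a had medians of 5.99 against 1.03 CPM (log2 difference 1.75 ± 0.65, 3.36-fold, edgeR adjusted p = 0.0234). Both overlapped between the groups. The Cd8a call was lost without BA mouse 15 (edgeR adjusted p = 0.0587). Without RT mouse 24 the Cd8a difference was 2.51 (5.70-fold, edgeR adjusted p = 0.00217). Itm2a, a membrane protein of activated T cells and of muscle and cartilage precursors, was the exception, with medians of 945 against 1362 CPM (log2 difference -0.52 ± 0.14, 1.43-fold, edgeR adjusted p = 0.00263).

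Among BA and RT tumours, mouse 24 and a pair of BA mice stood apart in lymphocyte content. The 6 T cell markers, all measured and all called higher in BA, summed to 50.6 to 266 CPM in BA tumours, to 117 CPM in RT mouse 24 and to 8.85 to 31.2 CPM in the other 8 RT tumours. The 4 B lineage markers, of which 3 were below the count filter, summed to 750 and 551 CPM in BA mice 11 and 15 and to 351 CPM in RT mouse 24, against at most 32.9 CPM in the other 15 tumours. With all mice, every BA tumour exceeded every RT tumour in 1 of 18 T cell genes, against 6.84% of all genes. Without mouse 24 the number was 9 of 18, against 7.80% of all genes counted the same way. Cd3g then differed by 3.12 on the log2 scale (8.72-fold, edgeR adjusted p = 2.75e-07) and Cd3d by 3.0 (8.02-fold, edgeR adjusted p = 8.27e-06). Mouse 24 was singled out by its high T cell sum, so leaving it out widens the gap in T cell genes, Cd8a included, by choice. These values describe its weight in the comparison and are not further evidence of a difference. With all 3 of these mice left out, 14 of 17 tested T cell genes were higher in BA and Cd3g differed by 2.74 (edgeR adjusted p = 3.19e-06). The part of B lineage content in the T cell difference was not tested beyond this. After all libraries were thinned to the smallest total, 12 T cell genes passed the count filter and 10 of them were higher in BA. Control mice 1 and 3 also had high B lineage sums, at 303 and 191 CPM against at most 41.7 CPM in the other controls. Their T cell sums were 72.9 and 133 CPM, and both were kept in every fit against control.

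**Figure D3:**
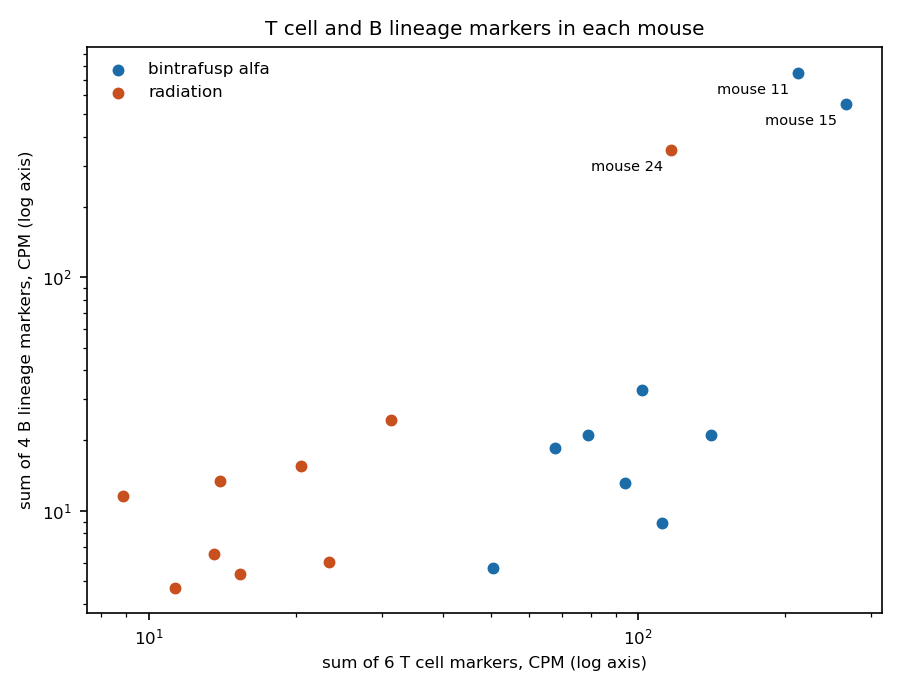
Sum of 6 T cell markers (horizontal, CPM, log axis) against the sum of 4 B lineage markers (vertical, CPM, log axis) in each BA and RT tumour; each point is a mouse. BA mice 11 and 15 and RT mouse 24 have B lineage sums of 750, 551 and 351 CPM, and the other 8 RT tumours have T cell sums of at most 31.2 CPM.

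Genes of regulatory T cells, which restrain immune responses, and of T cell activation followed the same direction. Of 14 tested regulatory T cell genes, 9 were higher in BA and 2 in RT (median 0.72), and of 17 costimulatory genes 13 were higher in BA and 3 in RT (median 0.79). These counts are not independent, because Icos, Tnfrsf4, Tnfrsf9 and Tnfrsf18 are in both lists. Cd27 and Cd28 are in the costimulatory and the T cell list, and Ctla4 is in the regulatory and the inhibitory list. Foxp3, the transcription factor that defines regulatory T cells, ranged from 14.1 to 30.5 CPM (median 16.3) in the BA tumours and from 0.669 to 7.74 CPM (median 3.87) in RT tumours. Foxp3 differed by 2.23 ± 0.25 (4.71-fold, edgeR adjusted p = 3.39e-09). Ctla4, an inhibitory receptor carried by regulatory and activated T cells, ranged from 15.6 to 49 CPM (median 26.9) in the BA tumours and from 0.469 to 8.33 CPM (median 2.37) in RT tumours. Ctla4 differed by 3.25 ± 0.45 (9.49-fold, edgeR adjusted p = 3.00e-07). Neither gene overlapped between the groups, and mouse 24 did not exceed the lowest BA tumour in either. Icos, a costimulatory receptor of the CD28 family, ranged from 19 to 59.9 CPM (median 33.9) in the BA tumours and from 1.66 to 16.7 CPM (median 5.02) in RT tumours. Icos differed by 2.51 ± 0.35 (5.69-fold, edgeR adjusted p = 3.69e-07). Tnfrsf18, the receptor GITR, ranged from 44.2 to 111 CPM (median 74.8) in the BA tumours and from 12.9 to 37.5 CPM (median 18.8) in RT tumours, without overlap. Tnfrsf18 differed by 1.87 ± 0.19 (3.66-fold, edgeR adjusted p = 7.75e-10).

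Against control, Ctla4 and Icos rose with BA and fell with radiation. For Ctla4 the log2 differences were 1.80 ± 0.41 (edgeR adjusted p = 0.00119) for BA minus control and -1.44 ± 0.47 (edgeR adjusted p = 0.0133) for RT minus control. For Icos they were 1.49 ± 0.34 (edgeR adjusted p = 9.92e-04) for BA minus control and -1.02 ± 0.36 (edgeR adjusted p = 0.0216) for RT minus control. For Foxp3 they were 1.60 ± 0.24 (edgeR adjusted p = 8.18e-06) for BA minus control and -0.64 ± 0.26 (edgeR adjusted p = 0.0511) for RT minus control. Lrrc32, a gene of the regulatory T cell list, went the other way. It encodes the GARP protein that holds latent TGF-β on the cell surface. Its medians were 103 against 203 CPM (log2 difference -0.95 ± 0.15, 1.93-fold, edgeR adjusted p = 2.79e-06), and which cells carried it was not tested. Among costimulatory genes, Tnfsf4, which encodes the OX40 ligand, had medians of 3.89 against 11.9 CPM (log2 difference -1.54 ± 0.25, 2.90-fold, edgeR adjusted p = 3.16e-06). Cd40, a receptor of antigen-presenting cells, had medians of 128 against 187 CPM (log2 difference -0.53 ± 0.10, 1.44-fold, edgeR adjusted p = 2.06e-05). Both were higher in RT with overlapping groups.

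Inhibitory receptors and their ligands were split. Of 18 tested, 6 were higher in BA and 9 in RT, with a median of -0.21. The ligands of PD-1 differed from each other: Pdcd1lg2, which encodes PD-L2, ranged from 52.5 to 196 CPM (median 108) in the BA tumours and from 6.52 to 23.6 CPM (median 9.40) in RT tumours, without overlap. Pdcd1lg2 differed by 3.45 ± 0.40 (10.9-fold, edgeR adjusted p = 1.10e-08). Cd274, which encodes PD-L1, the protein that BA binds, ranged from 116 to 506 CPM (median 238) in the BA tumours and from 148 to 365 CPM (median 206) in RT tumours. It did not pass the test (log2 difference 0.37 ± 0.33, 1.29-fold, edgeR adjusted p = 0.360). Against control, the log2 differences of Pdcd1lg2 were 1.40 ± 0.37 (edgeR adjusted p = 0.00439) for BA minus control and -2.05 ± 0.39 (edgeR adjusted p = 6.95e-05) for RT minus control. On the radiation side stood Tigit, an inhibitory receptor of T and natural killer cells, which ranged from 67.6 to 165 CPM (median 122) in the BA tumours and from 191 to 403 CPM (median 300.0) in RT tumours. Tigit differed by -1.35 ± 0.17 (2.55-fold, edgeR adjusted p = 3.16e-08). The 6 T cell markers together summed to medians of 102 CPM in BA and 15.4 CPM in RT tumours. Which cells carried the Tigit transcript was not tested. Vtcn1, the B7-H4 ligand that inhibits T cells, was low in all tumours and ranged from 0.632 to 3.87 CPM (median 1.69) in the BA tumours and from 8.13 to 19.6 CPM (median 9.05) in RT tumours. Vtcn1 differed by -2.35 ± 0.38 (5.09-fold, edgeR adjusted p = 3.06e-06). Lgals9, encoding the lectin galectin-9 that binds inhibitory receptors, ranged from 1781 to 2540.5 CPM (median 2176) in the BA tumours and from 3087 to 3894 CPM (median 3557) in RT tumours. Lgals9 differed by -0.67 ± 0.08 (1.60-fold, edgeR adjusted p = 1.77e-08). In these 3 genes no BA tumour reached the lowest RT tumour.

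The class II antigen presentation genes, which load and display peptides to CD4 T cells, were set apart by a fall after radiation. Of 6 tested members, 4 were higher in BA, in all 4 without overlap, and the 2 that did not pass were Ctss (0.14) and H2-DMa (-0.20), named here after their values were seen. H2-Aa and H2-Ab1 encode the α and β chains of the class II molecule I-A. H2-Aa ranged from 1735 to 6636 CPM (median 4183) in the BA tumours and from 230.0 to 557 CPM (median 325) in RT tumours. H2-Aa differed by 3.55 ± 0.34 (11.7-fold, edgeR adjusted p = 3.09e-10). It had a control median of 2346 CPM and a BA+RT median of 365 CPM. H2-Ab1 ranged from 1028 to 3221 CPM (median 2037) in the BA tumours and from 136 to 293 CPM (median 177) in RT tumours. H2-Ab1 differed by 3.48 ± 0.32 (11.2-fold, edgeR adjusted p = 7.64e-11). Cd74, the invariant chain that chaperones class II molecules, ranged from 5379 to 16255 CPM (median 10095) in the BA tumours and from 1078 to 2515 CPM (median 1641) in RT tumours. Cd74 differed by 2.69 ± 0.27 (6.45-fold, edgeR adjusted p = 8.07e-10). Ciita, the master activator of class II transcription, ranged from 80.3 to 363 CPM (median 196) in the BA tumours and from 26.7 to 68.1 CPM (median 32.1) in RT tumours. Ciita differed by 2.34 ± 0.43 (5.06-fold, edgeR adjusted p = 2.28e-05). The log2 differences of H2-Aa were 0.55 ± 0.31 (edgeR adjusted p = 0.196) for BA minus control and -3.0 ± 0.33 (edgeR adjusted p = 1.04e-08) for RT minus control. For H2-Ab1 they were 0.67 ± 0.29 (edgeR adjusted p = 0.0795) for BA minus control and -2.81 ± 0.31 (edgeR adjusted p = 7.63e-09) for RT minus control. For Ciita they were 0.27 ± 0.40 (edgeR adjusted p = 0.654) for BA minus control and -2.06 ± 0.42 (edgeR adjusted p = 1.75e-04) for RT minus control. In none of these 3 genes did BA pass the test against control.

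The promoter of H2-Aa is printed here because these genes moved together and the sequence shows the Y box, a short element of class II promoters bound by NF-Y. It is read from the RefSeq promoter table of GRCm38.p6, minus strand, 5′ to 3′, chr17:34287824-34287934, up to the last base before the annotated start, with the match to CTGATTGG in capitals. The letters were searched on both strands in the 250 bases before the start; 1 of the 3 class II genes with a promoter in the table held them, against 6.31% of the 776 tested genes with one. A match describes the sequence only.
H2-Aa: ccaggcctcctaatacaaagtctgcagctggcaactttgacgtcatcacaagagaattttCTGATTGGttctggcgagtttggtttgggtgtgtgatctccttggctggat

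Macrophage and class I presentation genes moved less uniformly than genes used as dendritic cell markers. Of 6 tested genes used as dendritic cell markers, 4 were higher in BA and none in RT (median 0.98), against 25.5% and 28.2% of all genes. Ccr7, the receptor that guides dendritic cells and T cells to lymph nodes, had medians of 55.3 against 21 CPM (log2 difference 1.23 ± 0.21, 2.35-fold, edgeR adjusted p = 7.78e-06). Cd83, a maturation marker, had medians of 139 against 54.6 CPM (log2 difference 1.16 ± 0.20, 2.24-fold, edgeR adjusted p = 6.87e-06). The defining dendritic markers Itgax, Flt3, Clec9a and Xcr1 were not among the genes analysed here, and Ccr7 is also a T cell gene. Of 13 macrophage and monocyte genes, 3 were higher in BA (23.1%) and 4 in RT (30.8%), near the shares over all genes. Csf1r, the receptor for the macrophage growth factor CSF1, ranged from 1781 to 2367 CPM (median 2066) in the BA tumours and from 911 to 1319.7 CPM (median 1133) in RT tumours. Csf1r differed by 0.84 ± 0.09 (1.79-fold, edgeR adjusted p = 9.21e-10). Ccr2, the receptor that draws monocytes towards CCL2, ranged from 1079 to 1360.3 CPM (median 1131) in the BA tumours and from 213 to 655 CPM (median 563) in RT tumours. Ccr2 differed by 1.17 ± 0.15 (2.25-fold, edgeR adjusted p = 4.74e-08). Adgre1, which encodes the macrophage marker F4/80, went the other way and ranged from 194 to 349.6 CPM (median 268) in the BA tumours and from 379.9 to 887 CPM (median 590.3) in RT tumours. Adgre1 differed by -1.11 ± 0.12 (2.16-fold, edgeR adjusted p = 3.33e-09). Cd68, a lysosomal protein of macrophages, was also higher in RT and ranged from 887 to 1075 CPM (median 939) in the BA tumours and from 1186 to 1742 CPM (median 1518) in RT tumours. Cd68 differed by -0.65 ± 0.06 (1.57-fold, edgeR adjusted p = 3.58e-10). None of these 4 genes overlapped between the groups. The 4 measured macrophage markers were Adgre1, Csf1r, Cd68 and Msr1, of which Msr1, named because it is such a marker, did not pass the test. Their summed level did overlap, at 3240 to 4100 CPM in BA and 2860 to 4090 CPM in RT tumours. Of 13 class I presentation genes only 1 was higher in BA and 2 in RT; Tap2, a subunit of the peptide transporter, was among the latter, with medians of 3.99 against 8.02 CPM (log2 difference -1.15 ± 0.28, 2.22-fold, edgeR adjusted p = 6.89e-04).

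RT tumours held more transcript of the antiviral genes that type I interferon induces. Of 14 tested, 13 were higher in RT and none in BA, with a median of -1.07, and in 10 of them no BA tumour reached the lowest RT tumour, against 9.73% of all genes. Oasl1, an OAS-like protein that restrains translation of the interferon regulator IRF7, ranged from 129 to 229 CPM (median 191) in the BA tumours and from 1154 to 1476 CPM (median 1193) in RT tumours. Oasl1 differed by -2.76 ± 0.11 (6.79-fold, edgeR adjusted p = 3.25e-21), the smallest p of the 1038 genes. Its spread within each group was narrow beside the gap between them. Oas2, an enzyme that senses double-stranded RNA and activates RNase L, ranged from 81.5 to 189 CPM (median 136) in the BA tumours and from 452 to 669 CPM (median 539) in RT tumours. Oas2 differed by -2.07 ± 0.18 (4.19-fold, edgeR adjusted p = 1.65e-11). Ifit3, a member of the antiviral IFIT protein complex with a near-identical gene copy that could share its reads, ranged from 73.3 to 333 CPM (median 206) in the BA tumours and from 705 to 1182 CPM (median 1041) in RT tumours. Ifit3 differed by -2.15 ± 0.22 (4.45-fold, edgeR adjusted p = 8.07e-10). Ddx58, the RNA sensor RIG-I, showed a smaller and equally clear gap, from 247 to 362 CPM (median 329) in the BA tumours and from 539 to 729 CPM (median 631) in RT tumours. Ddx58 differed by -0.98 ± 0.09 (1.98-fold, edgeR adjusted p = 1.27e-10). The member that did not pass was Ifi204 (0.16), named after its values were seen.

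Against control, Oasl1, Oas2 and Ifit3 rose with radiation, and none of them passed the test with BA. The log2 differences of Oasl1 were -0.0036 ± 0.10 (edgeR adjusted p = 0.981) for BA minus control and 2.76 ± 0.11 (edgeR adjusted p = 3.24e-21) for RT minus control. For Oas2 they were 0.16 ± 0.18 (edgeR adjusted p = 0.553) for BA minus control and 2.23 ± 0.18 (edgeR adjusted p = 4.53e-12) for RT minus control. For Ifit3 they were -0.25 ± 0.21 (edgeR adjusted p = 0.429) for BA minus control and 1.90 ± 0.22 (edgeR adjusted p = 1.38e-08) for RT minus control. In BA+RT tumours the medians stood near those of RT tumours, at 1152, 499 and 989 CPM. Upstream genes of interferon induction and signalling did not share this direction. Of 22 tested, 6 were higher in BA (27.3%) and 3 in RT (13.6%), against 25.5% and 28.2% of all genes. Ifngr1, a subunit of the interferon-γ receptor, ranged from 1046 to 1437 CPM (median 1083) in the BA tumours and from 747 to 942 CPM (median 809) in RT tumours. Ifngr1 differed by 0.52 ± 0.06 (1.44-fold, edgeR adjusted p = 3.16e-08). Irf4, a transcription factor of lymphocytes and dendritic cells, ranged from 9.37 to 23.5 CPM (median 13.8) in the BA tumours and from 2.01 to 7.14 CPM (median 3.56) in RT tumours. Irf4 differed by 1.76 ± 0.23 (3.40-fold, edgeR adjusted p = 1.04e-07). Both were higher in BA without overlap. Ikbke, a kinase that activates interferon regulators, was higher in RT, with medians of 215 against 298 CPM (log2 difference -0.55 ± 0.09, 1.46-fold, edgeR adjusted p = 2.63e-06). Tlr7, a sensor of single-stranded RNA, was too, with medians of 121 against 174 CPM (log2 difference -0.54 ± 0.12, 1.45-fold, edgeR adjusted p = 1.72e-04). With reference genes as the scale, that list held 3 higher in BA and 11 higher in RT, with a median of -0.18 in place of 0.05. All 1038 genes on that scale gave 118 and 536, with a median of -0.246.

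Promoter stretches of interferon-stimulated genes are printed because these genes moved together and carry the interferon-stimulated response element, a short element of interferon-induced promoters. The motif (GAAA, any 2 bases, then GAAA) was searched on both strands in the 250 bases before the start. It was found in 5 of the 9 tested antiviral genes that have a promoter in the RefSeq table (55.6%), against 44 of all 776 tested genes with one (5.67%) and 936 of 27025 promoters in the table (3.46%). Ifit3 is named by its values; Oas3, Oas1a, Oas1g and Bst2 are shown for their match and were chosen after their values were seen, with log2 differences of -1.47 ± 0.23, -1.04 ± 0.22, -1.22 ± 0.22 and -0.56 ± 0.23. The Oas1 genes are near-identical copies, as their promoters show, so reads may be shared between them and their separate values are uncertain. Matches are in capitals, overlapping matches run together, and capitals that read TTTC at their 5′ end are matches on the opposite strand; all are GRCm38.p6, 5′ to 3′ on the strand of the gene. The stretches are Ifit3 at chr19:34583313-34583452 on the plus strand, and on the minus strand Oas3 at chr5:120777660-120777794, Oas1a at chr5:120907526-120907605, Oas1g at chr5:120887614-120887691 and Bst2 at chr8:71537523-71537662. A match is a description and not a shown binding site.
Ifit3: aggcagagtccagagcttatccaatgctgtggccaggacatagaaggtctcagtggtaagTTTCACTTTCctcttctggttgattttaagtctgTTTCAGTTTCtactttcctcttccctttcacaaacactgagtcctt
Oas3: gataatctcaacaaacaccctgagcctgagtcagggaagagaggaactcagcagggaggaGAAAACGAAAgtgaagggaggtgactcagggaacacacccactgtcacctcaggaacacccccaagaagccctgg
Oas1a: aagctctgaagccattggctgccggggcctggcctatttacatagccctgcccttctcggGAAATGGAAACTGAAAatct
Oas1g: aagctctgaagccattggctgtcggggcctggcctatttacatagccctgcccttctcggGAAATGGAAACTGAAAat
Bst2: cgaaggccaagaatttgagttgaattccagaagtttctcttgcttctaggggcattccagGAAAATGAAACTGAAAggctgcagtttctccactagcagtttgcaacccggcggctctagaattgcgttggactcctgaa

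Chemokines that draw monocytes and T cells were also higher after radiation. Of 16 tested, 9 were higher in RT and 2 in BA (median -0.94). Ccl2 and Ccl7 are ligands of the monocyte receptor CCR2, the gene of which was higher in BA. Ccl2 ranged from 375 to 1059.5 CPM (median 616) in the BA tumours and from 2019 to 3925 CPM (median 2887) in RT tumours. Ccl2 differed by -2.17 ± 0.25 (4.51-fold, edgeR adjusted p = 1.45e-08). Ccl7 ranged from 485 to 1545 CPM (median 809) in the BA tumours and from 2417 to 5791 CPM (median 3559) in RT tumours. Ccl7 differed by -2.09 ± 0.30 (4.25-fold, edgeR adjusted p = 5.49e-07). Ccl5, which attracts T cells and monocytes, ranged from 126 to 357 CPM (median 196) in the BA tumours and from 828 to 1513 CPM (median 1003) in RT tumours. Ccl5 differed by -2.29 ± 0.19 (4.89-fold, edgeR adjusted p = 6.27e-12). The groups did not overlap in any of the 3. Cxcl12, a chemokine made by stromal cells that retains CXCR4-bearing cells, ranged from 51.3 to 207 CPM (median 109.7) in the BA tumours and from 157 to 962 CPM (median 528) in RT tumours, with some BA tumours above the lowest RT tumour. Cxcl12 differed by -1.99 ± 0.40 (3.97-fold, edgeR adjusted p = 7.85e-05). For Cxcl12 the fall with BA passed the test against control and the difference after radiation did not: its log2 differences were -1.17 ± 0.39 (edgeR adjusted p = 0.0243) for BA minus control and 0.82 ± 0.38 (edgeR adjusted p = 0.0838) for RT minus control. Ccl2 and Ccl5 rose with radiation. The log2 differences of Ccl2 were 0.16 ± 0.25 (edgeR adjusted p = 0.676) for BA minus control and 2.33 ± 0.26 (edgeR adjusted p = 7.63e-09) for RT minus control. Those of Ccl5 were 0.42 ± 0.18 (edgeR adjusted p = 0.0824) for BA minus control and 2.71 ± 0.19 (edgeR adjusted p = 2.19e-13) for RT minus control.

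The 2 chemokines that were higher in BA were Cx3cl1, which attracts monocytes and cytotoxic cells, with medians of 1016 against 716 CPM (log2 difference 0.57 ± 0.12, 1.49-fold, edgeR adjusted p = 8.85e-05), and Ccl17, which attracts T cells bearing CCR4. Ccl17 had medians of 113 against 78.8 CPM (log2 difference 0.59 ± 0.13, 1.5-fold, edgeR adjusted p = 3.26e-04). Attractants of neutrophils and inflammatory cytokines were higher in RT in 10 of 15 tested genes and in BA in 1 (median -0.84). Cxcl3, a ligand of the neutrophil receptor CXCR2, ranged from 4.22 to 43.1 CPM (median 13) in the BA tumours and from 54.6 to 189.7 CPM (median 96.3) in RT tumours. Cxcl3 differed by -2.49 ± 0.36 (5.60-fold, edgeR adjusted p = 5.49e-07). Il1a, an alarm cytokine, ranged from 122 to 227 CPM (median 163) in the BA tumours and from 286 to 595 CPM (median 387) in RT tumours. Il1a differed by -1.21 ± 0.17 (2.32-fold, edgeR adjusted p = 4.61e-07). Ptgs2, the prostaglandin-forming enzyme COX-2, ranged from 849 to 1420.0 CPM (median 1051) in the BA tumours and from 1982 to 2752 CPM (median 2442) in RT tumours. Ptgs2 differed by -1.12 ± 0.11 (2.17-fold, edgeR adjusted p = 3.82e-10). In each of the 3 all RT tumours lay above all BA tumours. Il18, a cytokine that stimulates interferon-γ production, was the exception, with medians of 512 against 405 CPM (log2 difference 0.43 ± 0.12, 1.35-fold, edgeR adjusted p = 0.00201), but lost its call with reference genes as the scale (0.20, edgeR adjusted p = 0.0644).

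Ch25h, an interferon-inducible enzyme that makes the antiviral oxysterol 25-hydroxycholesterol, also followed radiation: it ranged from 208 to 427 CPM (median 325) in the BA tumours and from 920.0 to 1658 CPM (median 1208) in RT tumours. Ch25h differed by -2.01 ± 0.18 (4.04-fold, edgeR adjusted p = 4.36e-11). For Ch25h the fits gave -0.05 ± 0.18 (edgeR adjusted p = 0.874) for BA minus control and 1.97 ± 0.18 (edgeR adjusted p = 1.56e-10) for RT minus control. Il13ra2, the decoy receptor for interleukin 13, ranged from 0.781 to 5.08 CPM (median 3.87) in the BA tumours and from 18.1 to 39.1 CPM (median 24) in RT tumours, with no overlap. Il13ra2 differed by -2.95 ± 0.31 (7.72-fold, edgeR adjusted p = 8.93e-10). Its log2 differences were -1.06 ± 0.33 (edgeR adjusted p = 0.0146) for BA minus control and 1.88 ± 0.28 (edgeR adjusted p = 1.50e-06) for RT minus control. Il13ra2 is on both panels, and on the panel not used its difference BA minus RT was -2.35 (edgeR adjusted p = 2.07e-05). The receptors for interleukin 1 went the other way: Il1r1, the signalling receptor, ranged from 836 to 1187 CPM (median 935) in the BA tumours and from 446 to 643 CPM (median 523) in RT tumours. Il1r1 differed by 0.84 ± 0.09 (1.79-fold, edgeR adjusted p = 9.60e-10). Il1r2, a decoy receptor, had medians of 392 against 219 CPM (log2 difference 0.83 ± 0.15, 1.77-fold, edgeR adjusted p = 1.72e-05).

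Granule serine proteases gave the largest difference of all genes named by rank. Ctsg encodes cathepsin G and Prtn3 proteinase 3, both stored in the granules of neutrophils and their precursors. Ctsg ranged from 24.8 to 93.7 CPM (median 39.7) in the BA tumours and from 0 to 2.71 CPM (median 1.19) in RT tumours. Ctsg differed by 5.21 ± 0.60 (37-fold, edgeR adjusted p = 8.54e-09). The control and BA+RT medians were 1.91 and 1.74 CPM. Prtn3 ranged from 71.8 to 194 CPM (median 125) in the BA tumours and from 18.6 to 51.1 CPM (median 25.4) in RT tumours. Prtn3 differed by 2.14 ± 0.23 (4.42-fold, edgeR adjusted p = 1.22e-09). BA and RT tumours did not overlap in either gene. Of 16 neutrophil marker and granule genes, Ctsg and Prtn3 included, 5 were higher in BA and 3 in RT (median 0.14), against 25.5% and 28.2% of all genes. With reference genes as the scale the counts were 4 and 4 and the median -0.11, against a median of -0.246 over all genes. No direction is given for the list. The 5 measured neutrophil markers summed to 1360 to 6210 CPM in BA and 1200 to 5020 CPM in RT tumours, the highest in BA mouse 13 and RT mouse 22. Mmp8, neutrophil collagenase, had medians of 103 against 52.4 CPM (log2 difference 0.85 ± 0.21, 1.81-fold, edgeR adjusted p = 6.96e-04). Mmp9, a gelatinase of neutrophils, macrophages and tumour cells, went the other way and ranged from 1116 to 2092 CPM (median 1459.7) in the BA tumours and from 3782 to 9833 CPM (median 6444) in RT tumours. Mmp9 differed by -2.05 ± 0.17 (4.14-fold, edgeR adjusted p = 4.86e-12). Here BA was the treatment that departed from control, with log2 differences of -2.26 ± 0.17 (edgeR adjusted p = 1.73e-12) for BA minus control and -0.21 ± 0.16 (edgeR adjusted p = 0.309) for RT minus control.

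**Figure D4:**
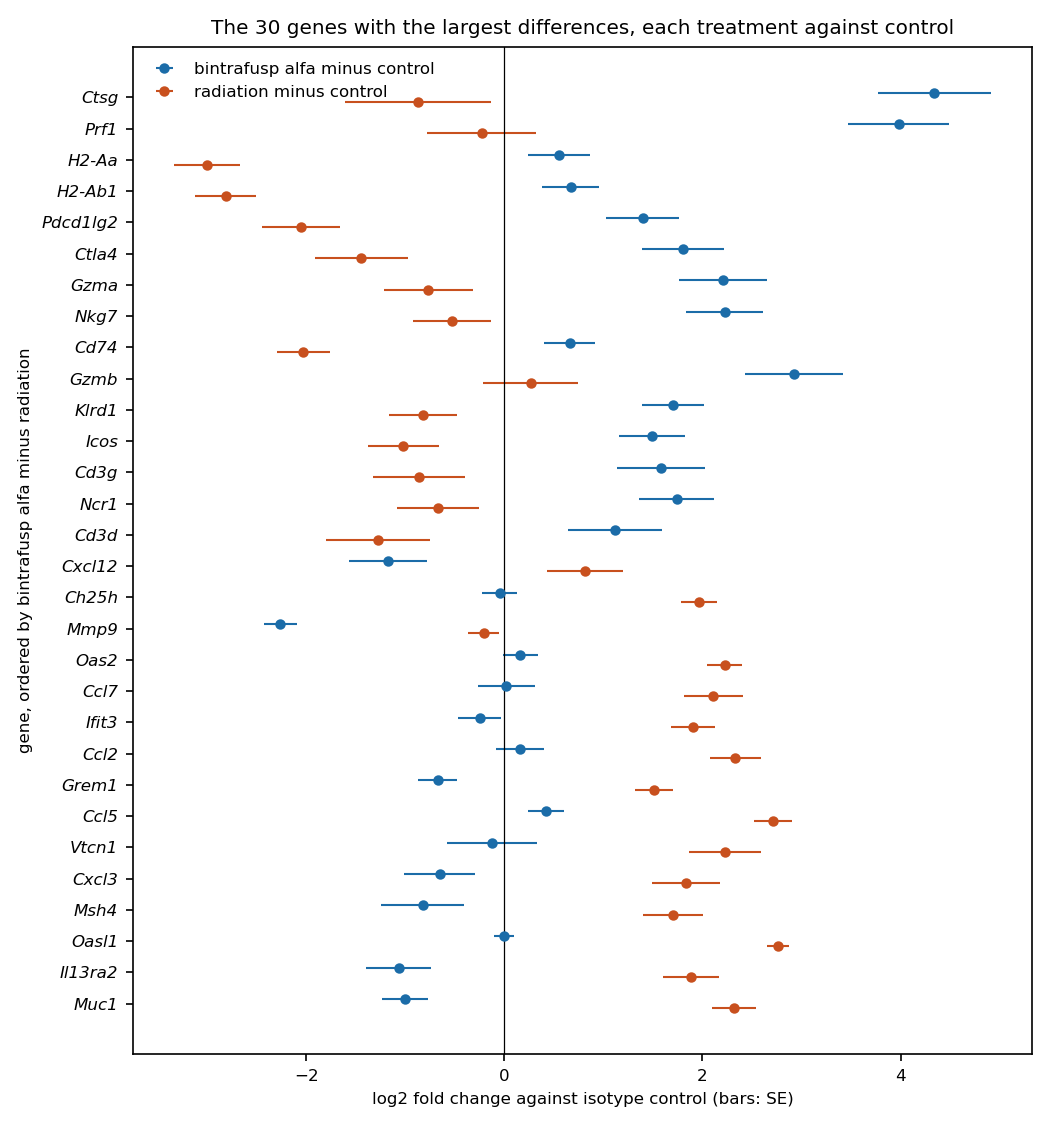
Log2 difference against the isotype control group (horizontal; points, fitted values; bars, SE) for the 15 genes with the largest and the 15 with the smallest difference BA minus RT among called genes. Both series use the same 9 control tumours. Prf1 and Ctsg moved with BA, H2-Aa and Oasl1 with radiation, and Mmp9 fell by 2.26 with BA.

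Stromal and matrix genes were mostly lower with BA than with radiation. The lists of matrix proteases (8 of 12 higher in RT, 2 in BA), collagens and matrix proteins (5 of 9 and 1) and fibroblast and pericyte markers (5 of 8 and 0) had medians of -0.55, -0.66 and -0.41. The 5 called members of the last list were Cspg4, Acta2, Fap and the ligand genes Pdgfa and Pdgfb. Pdgfrb, Snai1 and Zeb1, named after their values were seen, did not pass the test. Ctsb, the lysosomal protease cathepsin B, ranged from 5741 to 6929.9 CPM (median 6341) in the BA tumours and from 9292 to 12772 CPM (median 11090.3) in RT tumours. Ctsb differed by -0.79 ± 0.06 (1.73-fold, edgeR adjusted p = 2.96e-12). Thbs1 and Thbs2 encode thrombospondins, matrix proteins of which the first can activate latent TGF-β. Thbs1 ranged from 2901 to 4314 CPM (median 3451) in the BA tumours and from 4389 to 8099 CPM (median 6491) in RT tumours. Thbs1 differed by -0.80 ± 0.11 (1.74-fold, edgeR adjusted p = 2.95e-07). Thbs2 ranged from 5362 to 7808 CPM (median 5898) in the BA tumours and from 10345 to 15663 CPM (median 13152) in RT tumours, again without overlap. Thbs2 differed by -1.06 ± 0.13 (2.08-fold, edgeR adjusted p = 1.66e-08). Cspg4, the NG2 proteoglycan of pericytes, ranged from 32 to 70.1 CPM (median 57) in the BA tumours and from 76 to 215 CPM (median 161) in RT tumours. Cspg4 differed by -1.42 ± 0.21 (2.68-fold, edgeR adjusted p = 5.87e-07). Acta2, smooth muscle actin, had medians of 315 against 599.6 CPM (log2 difference -0.88 ± 0.19, 1.84-fold, edgeR adjusted p = 2.35e-04). Fap, a protease of activated fibroblasts, had medians of 214 against 288 CPM (log2 difference -0.39 ± 0.12, 1.31-fold, edgeR adjusted p = 0.00742). In Cspg4, Acta2 and Fap the control median was above those of both treatments, at 179, 647 and 396 CPM. The 4 measured fibroblast and pericyte markers, 3 of them called higher in RT, summed to 735 to 1230 CPM in BA and 873 to 1680 CPM in RT tumours.

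Not every matrix gene shared this direction. Fn1, which encodes fibronectin, was higher in BA, with medians of 49005 against 37403 CPM (log2 difference 0.39 ± 0.11, 1.31-fold, edgeR adjusted p = 0.00221), but not with reference genes as the scale (0.16, edgeR adjusted p = 0.101). Also higher in BA was the collagenase Mmp1a, with medians of 55 against 32.4 CPM (log2 difference 1.08 ± 0.31, 2.11-fold, edgeR adjusted p = 0.00350). Inhibitors of metalloproteinases differed among themselves. Timp1 ranged from 3419 to 4879.5 CPM (median 3902) in the BA tumours and from 8546 to 14008 CPM (median 10988) in RT tumours. Timp1 differed by -1.52 ± 0.15 (2.87-fold, edgeR adjusted p = 1.64e-10). Timp3 ranged from 509 to 790.2 CPM (median 635) in the BA tumours and from 836 to 2274 CPM (median 1576) in RT tumours, without overlap. Timp3 differed by -1.28 ± 0.21 (2.44-fold, edgeR adjusted p = 3.26e-06). Timp2 was slightly higher in BA, with medians of 14768 against 11249 CPM (log2 difference 0.35 ± 0.07, 1.28-fold, edgeR adjusted p = 3.49e-05), a call lost on the reference gene scale (0.08, edgeR adjusted p = 0.186). The log2 differences of Timp1 were -0.92 ± 0.14 (edgeR adjusted p = 1.16e-05) for BA minus control and 0.60 ± 0.14 (edgeR adjusted p = 0.00101) for RT minus control, of opposite sign for the 2 treatments. Among endothelial and angiogenesis genes, 6 of 13 were higher in RT and 1 in BA; Vegfc, a growth factor of lymphatic vessels, ranged from 79.8 to 260.5 CPM (median 163) in the BA tumours and from 286 to 391 CPM (median 373) in RT tumours. Vegfc differed by -1.07 ± 0.12 (2.11-fold, edgeR adjusted p = 8.54e-09). Vcam1, an adhesion molecule of inflamed endothelium, was the exception, with medians of 1331 against 864 CPM (log2 difference 0.57 ± 0.09, 1.49-fold, edgeR adjusted p = 5.14e-06). Kdr, the only measured defining marker of endothelium, did not pass the test (-0.16 ± 0.12) and was named because it is that marker.

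The ligands that BA captures differed among themselves. Of 14 genes of TGF-β ligands, receptors and activation, 4 were higher in BA and 6 in RT, and with reference genes as the scale 1 and 9. Tgfb2 ranged from 356 to 576 CPM (median 434) in the BA tumours and from 739 to 1309 CPM (median 1039) in RT tumours, without overlap. Tgfb2 differed by -1.17 ± 0.17 (2.25-fold, edgeR adjusted p = 4.57e-07). The log2 differences of Tgfb2 were -1.15 ± 0.17 (edgeR adjusted p = 4.16e-06) for BA minus control and 0.02 ± 0.16 (edgeR adjusted p = 0.924) for RT minus control. Tgfb1 ranged from 2228 to 3037 CPM (median 2618) in the BA tumours and from 2266 to 2786 CPM (median 2577) in RT tumours. It did not pass the test (log2 difference 0.06 ± 0.07, 1.04-fold, edgeR adjusted p = 0.497). With reference genes as the scale its difference was -0.21, higher in RT (edgeR adjusted p = 0.00429). Tgfb3 did not pass it either, with medians of 777 against 709 CPM (log2 difference 0.20 ± 0.11, 1.15-fold, edgeR adjusted p = 0.128). The same held for the type II receptor Tgfbr2, with medians of 5729 against 6159 CPM (log2 difference -0.02 ± 0.05, 1.01-fold, edgeR adjusted p = 0.826). The type I receptor Tgfbr1 was slightly higher in BA, with medians of 5828 against 4613 CPM (log2 difference 0.30 ± 0.07, 1.23-fold, edgeR adjusted p = 2.77e-04). On the reference gene scale Tgfbr2 was lower in BA (-0.29, edgeR adjusted p = 0.000369) and Tgfbr1 no longer passed (0.04). Itgb5, a subunit of integrins that can activate latent TGF-β, ranged from 10092 to 15163 CPM (median 11169) in the BA tumours and from 7838 to 9804 CPM (median 9155) in RT tumours. Itgb5 differed by 0.37 ± 0.08 (1.29-fold, edgeR adjusted p = 3.50e-04), and on the reference gene scale it did not pass (0.10, edgeR adjusted p = 0.256).

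Signal transducers and targets of TGF-β did not move in 1 direction: of 30 tested, 9 were higher in BA and 8 in RT (median 0.01), and with reference genes as the scale 1 and 19 (median -0.25). Smad2, a transducer of the TGF-β receptor, ranged from 2621 to 3034 CPM (median 2871) in the BA tumours and from 2225 to 2542 CPM (median 2324) in RT tumours. Smad2 differed by 0.27 ± 0.04 (1.21-fold, edgeR adjusted p = 1.36e-06). On the reference gene scale no difference of Smad2 was called (0.0018, edgeR adjusted p = 0.971). Id2, an inhibitor of differentiation factors, had medians of 3778 against 2651 CPM (log2 difference 0.55 ± 0.08, 1.47-fold, edgeR adjusted p = 1.03e-06). Gadd45b, a stress gene induced by TGF-β and by DNA damage, ranged from 345 to 514 CPM (median 381) in the BA tumours and from 701 to 1163 CPM (median 931) in RT tumours. Gadd45b differed by -1.18 ± 0.13 (2.27-fold, edgeR adjusted p = 1.26e-09). Grem1, a secreted antagonist of bone morphogenetic proteins, was further apart: it ranged from 147 to 337 CPM (median 248) in the BA tumours and from 939 to 1347 CPM (median 1121) in RT tumours. Grem1 differed by -2.18 ± 0.20 (4.54-fold, edgeR adjusted p = 4.36e-11). Against control it fell with BA and rose with radiation, with log2 differences of -0.67 ± 0.20 (edgeR adjusted p = 0.0107) for BA minus control and 1.51 ± 0.19 (edgeR adjusted p = 5.97e-08) for RT minus control. Its BA+RT median was 434 CPM, between those of the single treatments.

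**Figure D5:**
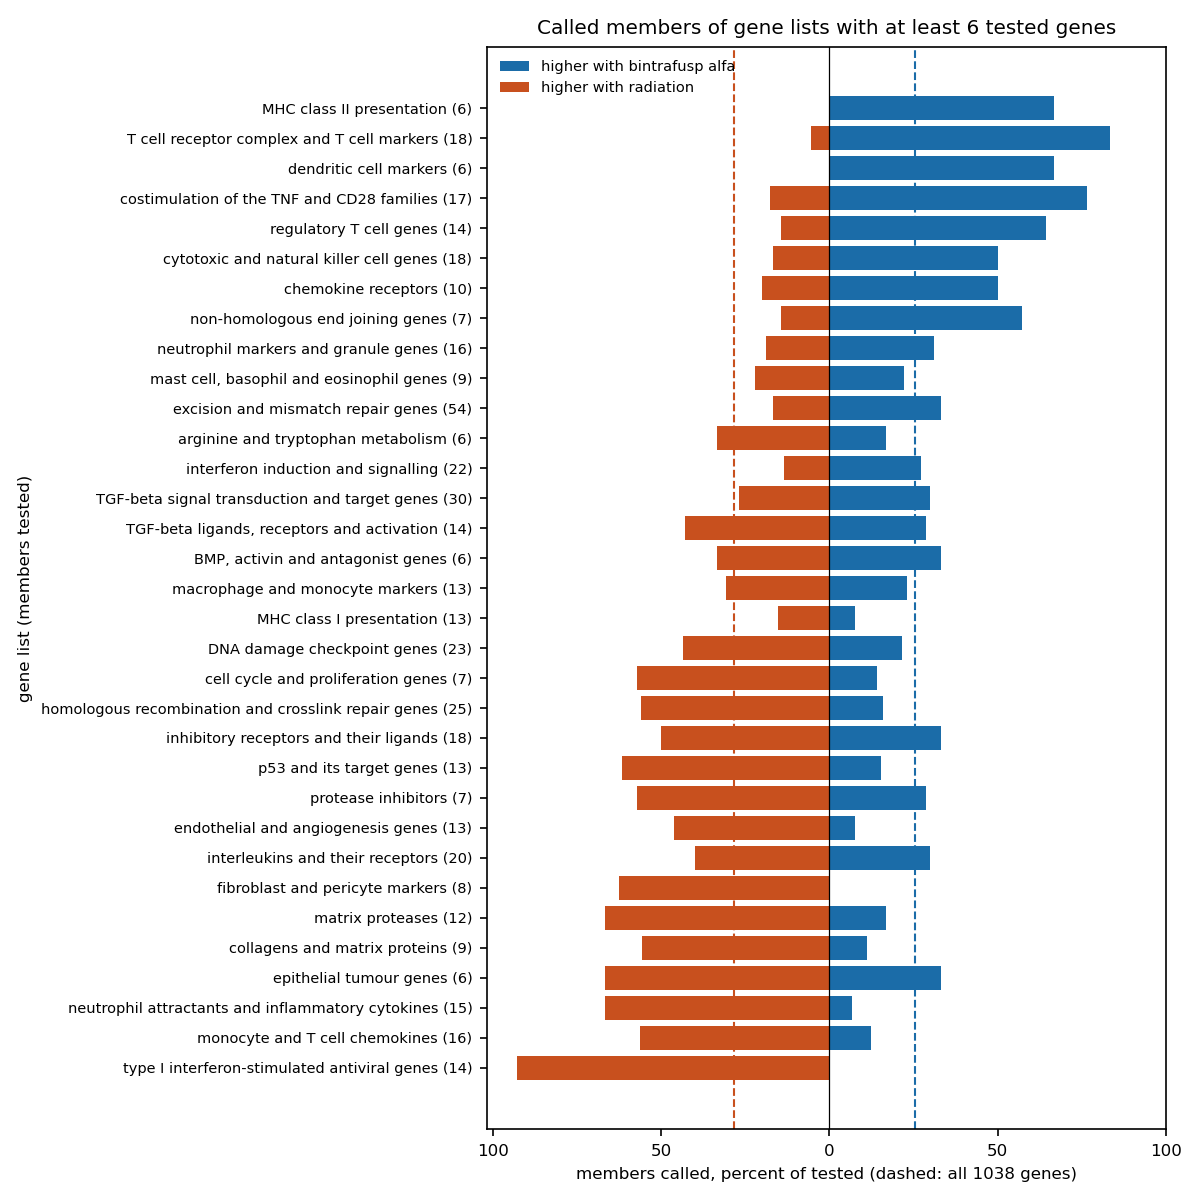
Share of tested members called higher in BA (right) or higher in RT (left) for each gene list with at least 6 tested genes, in percent; dashed lines are the shares over all 1038 genes, 25.5% and 28.2%. T cell (83.3%), costimulatory (76.5%), class II and dendritic cell genes (66.7% each) reach furthest to the right, and 13 of 14 type I interferon-stimulated genes lie on the left.

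Of 13 tested genes listed as p53 and its targets, 8 were higher in RT tumours and 2 in BA tumours (median -0.21). Whether p53 was active in these tumours was not tested. Cdkn1a, which encodes the cell cycle inhibitor p21, the best known p53 target, ranged from 859 to 1409 CPM (median 945) in the BA tumours and from 1946 to 4015 CPM (median 2868) in RT tumours, without overlap. Cdkn1a differed by -1.54 ± 0.19 (2.91-fold, edgeR adjusted p = 3.86e-08). Its log2 differences were -0.15 ± 0.19 (edgeR adjusted p = 0.618) for BA minus control and 1.39 ± 0.19 (edgeR adjusted p = 3.50e-07) for RT minus control. Trp53 itself ranged from 1711 to 2232 CPM (median 1968) in the BA tumours and from 2324 to 2764 CPM (median 2667) in RT tumours. Trp53 differed by -0.40 ± 0.05 (1.32-fold, edgeR adjusted p = 2.30e-07). Ddit3, the stress transcription factor CHOP, ranged from 766 to 1045 CPM (median 991) in the BA tumours and from 1463 to 2492 CPM (median 1678) in RT tumours. Ddit3 differed by -1.0 ± 0.10 (2.0-fold, edgeR adjusted p = 9.21e-10). The exceptions, higher in BA with overlapping groups, were Gadd45a, a DNA damage gene, and Xpc, a sensor of helix-distorting lesions. Gadd45a had medians of 8996 against 5469 CPM (log2 difference 0.68 ± 0.14, 1.60-fold, edgeR adjusted p = 1.11e-04). Xpc had medians of 889.9 against 726 CPM (log2 difference 0.37 ± 0.08, 1.29-fold, edgeR adjusted p = 1.71e-04) and lost its call on the reference gene scale (0.10, edgeR adjusted p = 0.145).

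DNA repair genes showed mostly small differences. Of 25 homologous recombination and crosslink repair genes, 14 were higher in RT and 4 in BA (median -0.17). Fancd2, a central crosslink repair protein, had medians of 313 against 518 CPM (log2 difference -0.71 ± 0.11, 1.63-fold, edgeR adjusted p = 1.84e-06). Brca1, a central protein of homologous recombination, had medians of 732 against 1097 CPM (log2 difference -0.55 ± 0.09, 1.47-fold, edgeR adjusted p = 3.05e-06). The helicase gene Wrn was higher in BA and ranged from 2317 to 3258 CPM (median 2684) in the BA tumours and from 1496 to 2103 CPM (median 1852) in RT tumours. Wrn differed by 0.56 ± 0.09 (1.48-fold, edgeR adjusted p = 1.44e-06). Of 7 end joining genes, 4 were higher in BA and 1 in RT (median 0.20). Xrcc4, a partner of DNA ligase IV, had medians of 975 against 612 CPM (log2 difference 0.51 ± 0.08, 1.42-fold, edgeR adjusted p = 2.29e-06). Xrcc5, the Ku80 subunit, had medians of 2011 against 1619 CPM (log2 difference 0.33 ± 0.06, 1.26-fold, edgeR adjusted p = 2.80e-05), a call lost on the reference gene scale (0.06, edgeR adjusted p = 0.404). Lig4, the ligase, was higher in RT, with medians of 424 against 493 CPM (log2 difference -0.29 ± 0.09, 1.22-fold, edgeR adjusted p = 0.00559). Of 54 excision and mismatch repair genes, 18 were higher in BA and 9 in RT (median 0.09).

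The direction of the end joining and the excision and mismatch repair lists depended on the scale. With reference genes the medians were -0.07 for end joining (1 of 7 higher in BA, 3 in RT) and -0.17 for excision and mismatch repair (2 and 28 of 54). Over all 1038 genes on that scale the median was -0.246, with 118 higher in BA and 536 in RT. Both list medians thus changed sign but lay above the median of all genes, and no direction is given for either. Xrcc1, a scaffold of single-strand break repair, ranged from 601 to 827 CPM (median 722) in the BA tumours and from 829 to 1058 CPM (median 944) in RT tumours. Xrcc1 differed by -0.42 ± 0.07 (1.34-fold, edgeR adjusted p = 4.32e-06). Msh4, a meiotic homologue of the mismatch repair proteins, was low in every tumour and ranged from 0 to 10.7 CPM (median 3.58) in the BA tumours and from 20.8 to 40.3 CPM (median 31) in RT tumours. Msh4 differed by -2.53 ± 0.35 (5.76-fold, edgeR adjusted p = 3.00e-07). For Msh4 the fits gave -0.82 ± 0.42 (edgeR adjusted p = 0.150) for BA minus control and 1.70 ± 0.30 (edgeR adjusted p = 2.36e-05) for RT minus control. Of 7 cell cycle genes, 4 were higher in RT and 1 in BA, against 28.2% and 25.5% of all genes. The proliferation markers Mki67 and Cenpf, named after their values were seen, did not pass the test. The gene higher in BA was Pcna (log2 difference 0.22, 1.17-fold, edgeR adjusted p = 0.0037), a direction lost with reference genes as the scale. Cdc25c, a phosphatase that drives entry into mitosis, had medians of 405 against 564 CPM (log2 difference -0.44 ± 0.08, 1.36-fold, edgeR adjusted p = 1.96e-05). Birc5, which encodes survivin, had medians of 3059 against 3803 CPM (log2 difference -0.39 ± 0.11, 1.31-fold, edgeR adjusted p = 0.00216).

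Genes of the epithelial tumour cells did not move together. All 6 tested were called, 2 higher in BA and 4 in RT. Muc1, a membrane mucin, ranged from 10.9 to 33.4 CPM (median 20.9) in the BA tumours and from 146 to 307 CPM (median 228) in RT tumours. Muc1 differed by -3.32 ± 0.24 (9.98-fold, edgeR adjusted p = 2.64e-13), the largest difference on the radiation side among the ranked genes. For Muc1 the fits gave -1.0 ± 0.23 (edgeR adjusted p = 0.00119) for BA minus control and 2.32 ± 0.22 (edgeR adjusted p = 3.41e-10) for RT minus control. Msln, which encodes mesothelin, ranged from 322 to 658 CPM (median 516) in the BA tumours and from 812 to 1272 CPM (median 960.2) in RT tumours. Msln differed by -1.03 ± 0.13 (2.05-fold, edgeR adjusted p = 7.44e-08). Epcam, an epithelial adhesion molecule, was higher in BA, with medians of 9413 against 6211 CPM (log2 difference 0.51 ± 0.11, 1.42-fold, edgeR adjusted p = 1.70e-04). It had a control median of 11227 CPM. The 3 measured epithelial markers summed to 8340 to 11200 CPM in BA and 6640 to 10300 CPM in RT tumours. Skeletal muscle transcripts were present in both groups and varied widely between mice: Mb, myoglobin of the host muscle, ranged from 329.7 to 3636 CPM (median 1457) in the BA tumours and from 342 to 2279 CPM (median 1049) in RT tumours. Mb differed by 0.51 ± 0.54 (1.42-fold, edgeR adjusted p = 0.452). Pvalb, parvalbumin of fast muscle fibres, ranged from 110.4 to 1905 CPM (median 928) in the BA tumours and from 20.5 to 668 CPM (median 181) in RT tumours. Pvalb differed by 1.98 ± 0.86 (3.95-fold, edgeR adjusted p = 0.0525). Neither passed the test as reported; Pvalb passed it with DESeq2 (adjusted p = 0.0230).

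Kynu and Kit were lower after radiation than with BA. Kynu, kynureninase of tryptophan breakdown, ranged from 106 to 172 CPM (median 138) in the BA tumours and from 26.1 to 50.7 CPM (median 31.7) in RT tumours. Kynu differed by 1.97 ± 0.18 (3.92-fold, edgeR adjusted p = 5.99e-11). For Kynu the fits gave 0.18 ± 0.17 (edgeR adjusted p = 0.478) for BA minus control and -1.79 ± 0.18 (edgeR adjusted p = 7.22e-10) for RT minus control. Kit, the receptor for stem cell factor on mast cells and progenitors, ranged from 59.9 to 158 CPM (median 104) in the BA tumours and from 19.6 to 51.4 CPM (median 30.1) in RT tumours. Kit differed by 1.70 ± 0.18 (3.24-fold, edgeR adjusted p = 1.22e-09). For Kit the fits gave 0.33 ± 0.17 (edgeR adjusted p = 0.167) for BA minus control and -1.37 ± 0.18 (edgeR adjusted p = 1.69e-07) for RT minus control. In both, every BA tumour lay above every RT tumour and the control median, 109 and 85.1 CPM, lay nearer to BA. Of 9 mast cell, basophil and eosinophil genes, 2 were higher in BA and 2 in RT (median 0.10), and with reference genes as the scale 1 and 2 (median -0.15). The 3 measured mast cell markers summed to 98.4 to 191 CPM in BA and 34.8 to 118 CPM in RT tumours. Only Kit among them was called: Cpa3 did not pass the test and Ms4a2 was below the count filter. Ass1, which makes arginine precursors, was higher in RT and ranged from 30.9 to 52.1 CPM (median 38.5) in the BA tumours and from 55.7 to 86.8 CPM (median 73.6) in RT tumours. Ass1 differed by -0.80 ± 0.14 (1.75-fold, edgeR adjusted p = 6.87e-06).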

How the data were processed

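RNA of each tumour was measured with a targeted immuno-oncology panel and a custom panel covering targets of TGF-β, fibrosis, and the damage and repair of DNA, per the labels' protocols. The deposited table holds counts per amplicon for both panels; no label says whether reads or molecules were counted. The deposited companion table holds regularized log2 values, and the submitters' processing notes name DESeq2, GRCm38 and GRCh38. Amplicon positions matched mouse genes on GRCm38. Genomic DNA control rows (2.32e-05% of counts) were dropped, the panels were normalised separately by TMM, and a gene on both panels (54 genes) was taken from the one with its larger total. edgeR 4.0.16 (R 4.3.3) quasi-likelihood fits used all 4 groups, so that they share 1 estimate of the spread, with Benjamini-Hochberg adjustment over 1038 genes. In data simulated from these groups, 97% of 99 genes changed by log2 1 and 100% of 100 changed by log2 2 were called, with 4 false calls. The simulation changed fewer genes than differed here, balanced between directions, so it does not cover the shift seen with reference genes. No pair of tumours in a group agreed within sampling noise (lowest chi-square per degree of freedom 14.1). Mice are separate animals, so p-values measure the spread between mice.

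Alternatives used other scalings and filters, DESeq2 1.42.0, limma 3.58.1 on the deposited regularized log2 values, fewer mice, thinned libraries and the other panel. Named genes were the 15 with the largest and the 15 with the smallest difference among called genes with at least 10 CPM in the higher group, up to 4 members of each gene list by smallest p, and the targets and lineage markers; others are remarked on. Some genes that the rule names are not reported here. The comparison and the gene lists were chosen with earlier results of these data known.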

Additional observations from a re-analysis of the deposited data

Results flagged for a closer look

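In 12 of 216 checks of 108 named genes in the BA and RT groups (5.56%), 1 tumour lay far from the other 8 on the log2 scale; chance gives about 1 in 20. RT mouse 24 was high for Cd3g (36.9 CPM, next 10.9) and Zap70 (25.6 CPM, next 13), and it is the irradiated tumour with high T cell and B lineage sums. RT mouse 26 was high for Gzma (52.0 CPM), RT mouse 19 low for Nkg7 (7.24 CPM), RT mouse 22 low for Ccr2 (213 CPM), and RT mouse 21 low for Foxp3 (0.669 CPM) and Vegfc (286 CPM). RT mouse 25 was high for Timp2 (14700 CPM) and low for Acta2 (281 CPM). Among BA tumours, mouse 17 was low for Ifit3 (73.3 CPM), mouse 11 for Tap2 (1.38 CPM) and mouse 13 for Id2 (3010 CPM). Genomic DNA control rows, which the comparison does not use, held 7 counts over the RT libraries against 1 in the control libraries and 1 in the BA libraries, and the BA+RT libraries held 10.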

How the results depend on the processing

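Genes higher in BA and in RT numbered 265 and 293 as reported, 253 to 277 and 264 to 290 when any 1 BA or RT mouse was left out, and 272 and 288 with DESeq2. The scale mattered most: with reference genes the counts were 118 and 536 and the median of all genes -0.246. The differences of Atr (-0.0267), Rad51d (-0.0588), Pcna (-0.0451) and Tgfb1 (-0.21) changed sign on that scale. Tgfb1 was called higher in RT there, while the values of Atr, Rad51d and Pcna were small and no difference is read from them. Of the genes named in the report, Il18, Timp2, Fn1, Itgb5, Smad2, Xpc, Xrcc5 and Tgfbr1 lost their call on that scale. Pvalb passed the test with DESeq2, limma, thinned libraries and BA and RT mice alone, and Tgfb3 passed it on the other panel (0.25). Cd4, Cd8a, Irf4, Tap2 and Vtcn1 fell below the count filter after thinning. Cd8a also fell below it without BA mice 11 and 15 and RT mouse 24. Leaving out BA mice 11 and 15 and RT mouse 24, which was added after seeing the data, gave 255 and 247 genes. RT libraries were deeper; with all libraries thinned to the smallest total, 263 and 253 genes were called. Genes of a few CPM, such as Cd8a and Vtcn1, rest on few counts. No paired analysis was possible because the groups share no mouse numbers.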
